A study of Mus musculus with 8 samples.

Results

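The solute carrier family 25 holds the carrier proteins of the inner mitochondrial membrane, and its members in mouse heart ventricles were taken as every row of the gene table with a symbol of Slc25a and a number, together with the uncoupling proteins Ucp1, Ucp2 and Ucp3. This gave 50 genes of 54429 rows, 47 named Slc25a and 3 named Ucp. RNA was sequenced from both ventricles of C57BL/6 mice at postnatal day 35. All mice carried floxed alleles of Esrra and Esrrg, the genes of estrogen-related receptors alpha and gamma, and all were injected with an adeno-associated virus (AAV) at postnatal day 0 to 1. In the 4 libraries labelled AAV-Cre the virus was AAV-cTnT-Cre, in which the cardiac troponin T promoter directs Cre recombinase to cardiomyocytes. By this design the other cells of the ventricle should keep both genes, but recombination by cell type is not measured in these data. The 4 libraries labelled AAV-Luc came from mice given the Luc control virus. Separate mice per library are not stated in the labels, and p-values therefore reflect only how far libraries of a group differ, which may be technical.

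Carriers of this family are built from a repeated domain of membrane helices and open alternately to the matrix and to the space between the membranes, exchanging 1 substrate for another. In heart muscle they bring ADP, phosphate and acylcarnitines into the matrix, send ATP out, and move the malate and aspartate of the redox shuttle. Uncoupling proteins belong to the same family, and Ucp1 of brown fat lets protons return to the matrix without making ATP. Estrogen-related receptors are transcription factors that bind genes of mitochondrial energy metabolism.

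Levels are RPKM, that is reads relative to gene length and to the library total, and library numbers are names given by column order. Totals of 48290000 to 61265000 reads per library were implied by the step size of low RPKM values. Esrra measured 41.9, 37.3, 43.6 and 33.3 RPKM in the AAV-Cre libraries, against 45.3, 50.1, 41.8 and 43.1 RPKM in the AAV-Luc libraries. These ranges overlapped, and the log2 fold change of Esrra was -0.21 (SE 0.10, adjusted p = 0.0705), and ran from -0.26 without AAV-Cre library 3 (adjusted p = 0.0332) to -0.14 without AAV-Cre library 4. Esrra was called lower with library quality weights (adjusted p = 0.036), without mitochondrial and haemoglobin genes (-0.48), after quantile normalization (-0.56), and with each library centred on its median (-0.62, adjusted p = 0.000549). Esrrg measured 221, 205, 242 and 204 RPKM in the AAV-Cre libraries, against 120.1, 109, 108 and 114 RPKM in the AAV-Luc libraries. Esrrg was thus higher in every library labelled AAV-Cre, with a log2 fold change of 0.95 (SE 0.07, adjusted p = 5.32e-06), which goes against the label of a targeted gene. RPKM over a whole gene does not show which part of it was read, and directions below are those of the libraries labelled AAV-Cre.

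Of the 50 carrier genes, 41 reached 1 RPKM in at least 4 libraries and were tested. At an adjusted p of 0.05, 30 of the 41 were called, beside 73.3% of all genes tested. Of these, 16 were lower in AAV-Cre, beside 8.87% of all genes, and 14 were higher, beside 64.4%. The other 11 were not called. The median log2 fold change was -0.08 for the carriers and 0.41 for all 16385 genes tested. Centring on the library median, which removes that general shift of 0.41, left 29 carriers called, beside 45.9% of all genes. Of these, 26 were lower, beside 24.1% of all genes, and 3 were higher, beside 21.8%. The median of the carriers was then -0.49, and that of all genes was 0.00 to 2 decimals. All 4 AAV-Cre libraries lay below all 4 AAV-Luc libraries for 14 carriers, beside 7.67% of all genes, and above them for 14, beside 58.4%. These counts include Slc25a29 and Slc25a53, which passed the filter through their AAV-Luc and AAV-Cre libraries alone and so had to differ. Both are also among the carriers called as deposited, and Slc25a29 is among those lower after centring. In whole ventricle RNA, fewer cells of a type and less RNA per cell cannot be told apart.

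**Figure D1:**
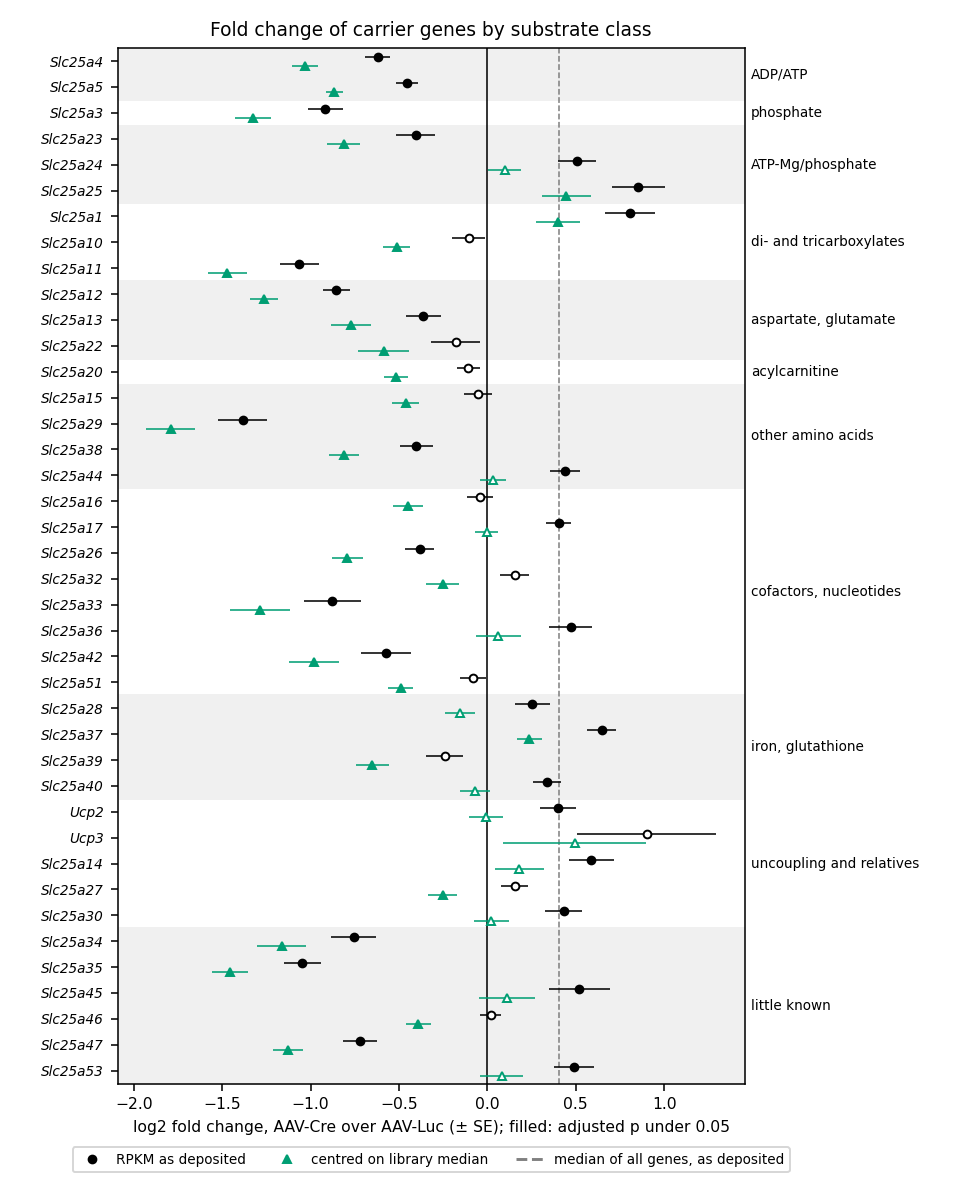
Log2 fold change of AAV-Cre over AAV-Luc (x axis, with SE) for 40 of the 41 carrier genes tested, grouped by substrate; circles are RPKM as deposited, triangles are values centred on the library median, filled symbols have an adjusted p under 0.05, and the dashed line is the median of all genes at 0.41. Of the 40 circles 15 are called lower and 14 higher, and of the triangles 25 are called lower and 3 higher.

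The carriers of ADP, ATP and phosphate, which feed ATP synthase and carry its product out, included Slc25a4 and Slc25a3, at the 2 highest levels of the family. All 3 that were tested fell, beside 8.87% of all genes. Slc25a4, the adenine nucleotide translocase of heart and muscle (chr8:46206797-46211284, minus strand, GRCm38), measured 864, 847, 823 and 891 RPKM in AAV-Cre, against 1231, 1464, 1302 and 1279 RPKM in AAV-Luc. Its highest AAV-Cre library was below its lowest AAV-Luc library, with a log2 fold change of -0.62 (SE 0.07, adjusted p = 5.23e-05). The translocase of many tissues, Slc25a5 (chrX:36795651-36798807, plus strand), measured 97.5, 94.6, 92.1 and 95.6 RPKM in AAV-Cre, against 136, 137, 119 and 132 RPKM in AAV-Luc. It also fell without overlap, by 0.46 on the log2 scale (SE 0.06, adjusted p = 0.000134). A set of 7 pseudogenes holds near-identical stretches of Slc25a5, and together they measured 1.90 RPKM in AAV-Cre and 2.44 RPKM in AAV-Luc. The ratio of Slc25a5 to Slc25a4 was 0.111 ± 0.00251 in AAV-Cre and 0.0994 ± 0.00883 in AAV-Luc, with overlap between groups (SD, n = 4 each; two-sided exact permutation p = 0.0571, adjusted p = 0.0735 over the 9 pairs of related carriers compared). The third translocase, Slc25a31, known from the testis, stayed under 1 RPKM in every library.

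The phosphate carrier Slc25a3, which imports the phosphate used to make ATP (chr10:91116574-91124059, minus strand), measured 336, 293, 330.2 and 251 RPKM in AAV-Cre, against 564, 592, 524 and 594 RPKM in AAV-Luc. The groups were far apart, with means of 303 ± 39.3 RPKM in AAV-Cre and 569 ± 32.6 RPKM in AAV-Luc (SD, n = 4 each) and a log2 fold change of -0.92 (SE 0.10, adjusted p = 3.43e-05). Its promoter in RefSeq, on GRCm38.p6 at chr10:91123918-91124217 on the minus strand, is shown because it holds the only match among the called carriers to a motif of NRF1, a transcription factor of mitochondrial genes. The 300 bases run from 250 before the transcription start to 50 after it, and the capitals mark GCGCCTGCGC, which begins at position -214 from the start.
Slc25a3: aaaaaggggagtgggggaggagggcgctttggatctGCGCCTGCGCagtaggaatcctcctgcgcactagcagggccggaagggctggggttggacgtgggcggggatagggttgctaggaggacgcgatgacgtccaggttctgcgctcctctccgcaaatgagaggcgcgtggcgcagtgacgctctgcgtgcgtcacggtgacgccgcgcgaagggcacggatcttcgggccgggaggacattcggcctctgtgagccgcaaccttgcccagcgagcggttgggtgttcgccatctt

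In a list on ATP use and supply, 5 of 5 genes fell, beside 8.87% of all genes, and the median log2 fold change was -0.96. Ckmt2, the mitochondrial creatine kinase that takes ATP from the translocase, averaged 426 ± 37.2 RPKM in AAV-Cre and 863 ± 51.0 RPKM in AAV-Luc (SD, n = 4 each), a log2 fold change of -1.02 (SE 0.08). The ATP synthase subunits Atp5a1 and Atp5b had log2 fold changes of -1.07 and -0.96. Ppif, or cyclophilin D, which binds ATP synthase and regulates the permeability pore, changed by -0.73 on the log2 scale.

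Slc25a4 and Slc25a3 dominated the summed level of the 50 carriers. The sum was 1757, 1672, 1730.0 and 1651 RPKM in the AAV-Cre libraries, against 2468, 2775, 2469 and 2600 RPKM in the AAV-Luc libraries, values scaled to gene length. Every AAV-Cre library was below every AAV-Luc library, and the ratio of the means was 0.660 (p = 0.0286, two-sided exact permutation test, the smallest that 4 against 4 libraries allow). Without Slc25a4 the log2 difference of the sums was -0.57 instead of -0.60, and centred on the library median it was -1.01. Slc25a4 made up 50.3 ± 2.74% of the sum in AAV-Cre and 51.1 ± 1.87% in AAV-Luc, so its share differed by less than the spread between libraries. The share of Slc25a3 was 17.7 ± 1.84% in AAV-Cre and 22.1 ± 0.919% in AAV-Luc, without overlap between libraries (SD, n = 4 each).

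**Figure D2:**
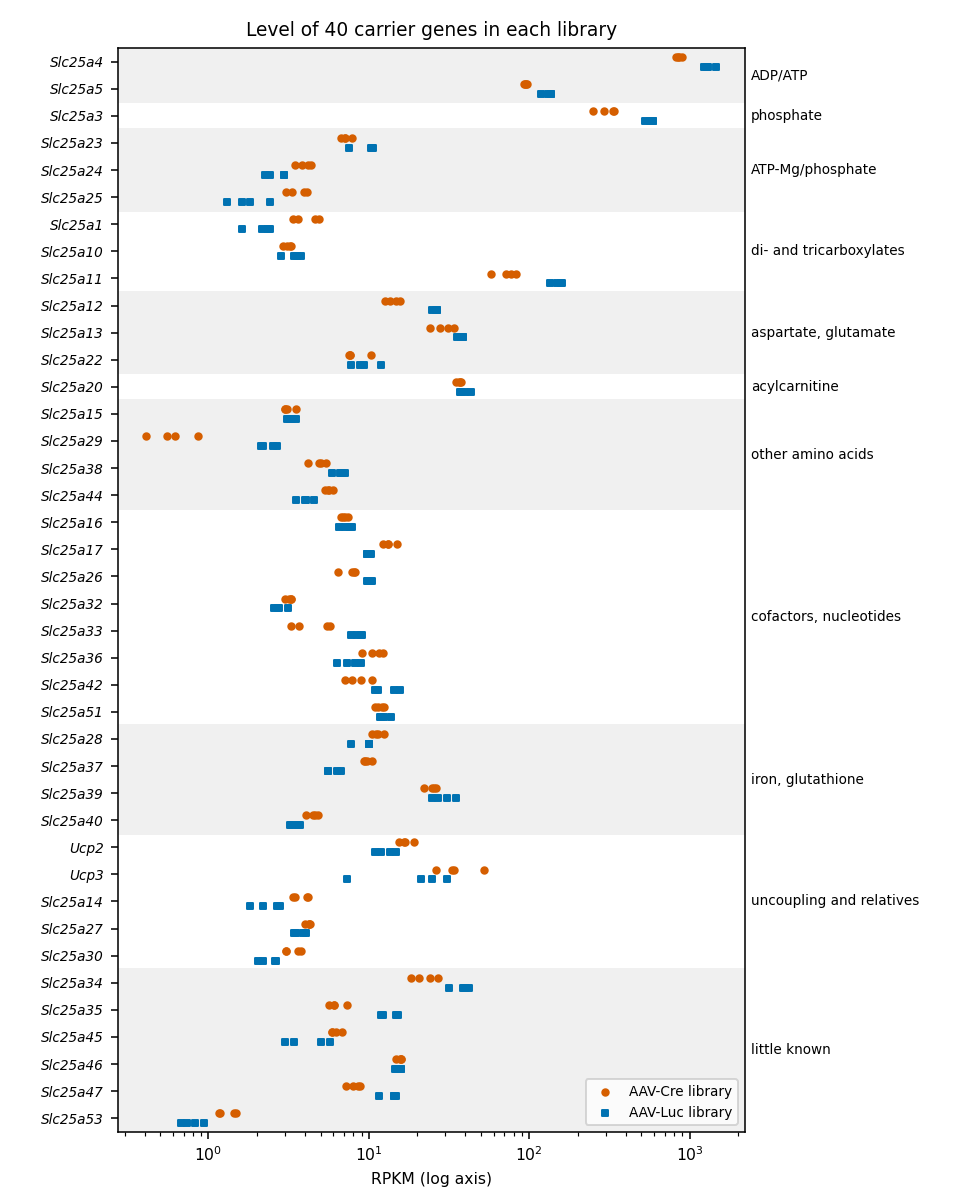
RPKM (log axis) of 40 of the 41 carrier genes tested in each AAV-Cre library (circles) and each AAV-Luc library (squares), grouped by substrate. The 4 AAV-Cre libraries of Slc25a4 lie between 823 and 891 RPKM, all below the AAV-Luc libraries, while those of Ucp3 spread between 26.0 and 52.3 RPKM and overlap with AAV-Luc.

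The malate-aspartate shuttle, which carries the electrons of cytosolic NADH into mitochondria, uses an oxoglutarate carrier and an aspartate/glutamate carrier. Tested genes of both carriers fell. Slc25a11, the exchanger of oxoglutarate and malate (chr11:70644196-70647479, minus strand), measured 82.4, 71.9, 77.0 and 57.5 RPKM in AAV-Cre, against 149, 157, 135 and 161 RPKM in AAV-Luc. No library of either group came near the other group, and the log2 fold change was -1.06 (SE 0.11, adjusted p = 2.96e-05). Of the exon bases of Slc25a11, 8.92% are shared with Rnf167 on the opposite strand, which averaged 72 RPKM in AAV-Cre and 64.2 RPKM in AAV-Luc.

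Slc25a12, the aspartate/glutamate carrier of excitable tissues, also known as aralar (chr2:71271063-71367749, minus strand), measured 15.7, 13.6, 14.8 and 12.6 RPKM in AAV-Cre, against 26.2, 26.4, 24.7 and 26.5 RPKM in AAV-Luc. The groups did not overlap, and the log2 fold change was -0.86 (SE 0.08, adjusted p = 1.32e-05). Its relative Slc25a13, known as citrin and abundant in liver (chr6:6041218-6217173, minus strand), measured 31.1, 27.7, 34.0 and 24.2 RPKM in AAV-Cre, against 35.4, 37.3, 38.7 and 38.5 RPKM in AAV-Luc. Slc25a13 also fell without overlap, by 0.36 on the log2 scale (SE 0.10, adjusted p = 0.00796), and AAV-Cre library 3 came closest to the AAV-Luc range. The ratio of Slc25a13 to Slc25a12 within a library does not depend on library totals. It was 2.06 ± 0.163 in AAV-Cre and 1.45 ± 0.0929 in AAV-Luc (SD, n = 4 each; two-sided exact permutation p = 0.0286, adjusted p = 0.0429 over the 9 pairs). Slc25a22, which moves glutamate with a proton, was not called at 8.26 RPKM in AAV-Cre and 9.44 RPKM in AAV-Luc (log2 fold change -0.18, adjusted p = 0.265).

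Among 7 enzymes of the redox shuttles, 4 fell, 2 rose and 1 was not called, where 8.87% of all genes fell and 64.4% rose. Their median log2 fold change was -0.83. The 4 that fell were the malate dehydrogenases and aspartate aminotransferases of cytosol and matrix, which supply the substrates of Slc25a11, Slc25a12 and Slc25a13. Mdh2 averaged 175 ± 24.9 RPKM in AAV-Cre and 455 ± 40.3 RPKM in AAV-Luc, and Got2 averaged 89.7 ± 16.6 RPKM in AAV-Cre and 238 ± 17.7 RPKM in AAV-Luc (SD, n = 4 each). Their log2 fold changes were -1.38 and -1.42, and those of the cytosolic Mdh1 and Got1 were -0.83 and -1.01.

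None of the other carriers of tricarboxylic acid cycle acids was called lower as deposited. Slc25a1, the citrate carrier whose exported citrate feeds lipid synthesis in the cytosol, measured 3.39, 4.60, 3.60 and 4.89 RPKM in AAV-Cre, against 2.15, 2.35, 1.61 and 2.42 RPKM in AAV-Luc. It rose without overlap between groups, with a log2 fold change of 0.81 (SE 0.14, adjusted p = 0.000669), and was 1 of the 3 carriers still higher after centring, at 0.40 (adjusted p = 0.0252). The dicarboxylate carrier Slc25a10 averaged 3.12 RPKM in AAV-Cre and 3.41 RPKM in AAV-Luc and was not called (log2 fold change -0.11, adjusted p = 0.324), but was lower after centring, at -0.51. Slc25a21, which carries 2-oxoadipate and oxoglutarate, did not pass the filter on low values.

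Slc25a20, the carnitine/acylcarnitine carrier that brings long-chain acyl groups to beta-oxidation (chr9:108662088-108684641, plus strand), measured 37.6, 34.7, 37.2 and 36.4 RPKM in AAV-Cre, against 37.7, 39.7, 37.1 and 43.1 RPKM in AAV-Luc. AAV-Luc library 3 lay inside the AAV-Cre range, and the gene was not called (log2 fold change -0.11, SE 0.06, adjusted p = 0.154). After centring it was lower, at -0.52 on the log2 scale (adjusted p = 0.000176). A near-identical stretch of 366 bases of Slc25a20 lies in 18 other annotated genes, of which 14 have rows that summed to 0.721 RPKM in AAV-Cre and 1.21 RPKM in AAV-Luc. Of the 5 other genes of the carnitine pathway, 3 fell, 1 rose and 1 was not called, where 8.87% of all genes fell and 64.4% rose. Their median log2 fold change was -0.62. Cpt1b, the muscle form of the enzyme that makes acylcarnitine, averaged 55 ± 11 RPKM in AAV-Cre and 116 ± 9.92 RPKM in AAV-Luc, a log2 fold change of -1.08. Cpt2, which turns acylcarnitine back into acyl-CoA behind Slc25a20, averaged 28.1 ± 3.67 RPKM in AAV-Cre and 52.1 ± 5.10 RPKM in AAV-Luc (SD, n = 4 each), a log2 fold change of -0.88. Carnitine acetyltransferase, Crat, changed by -0.62 on the log2 scale, and Cpt1a, the liver form of the enzyme, by 0.56, or 0.15 and not called after centring.

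**Figure D3:**
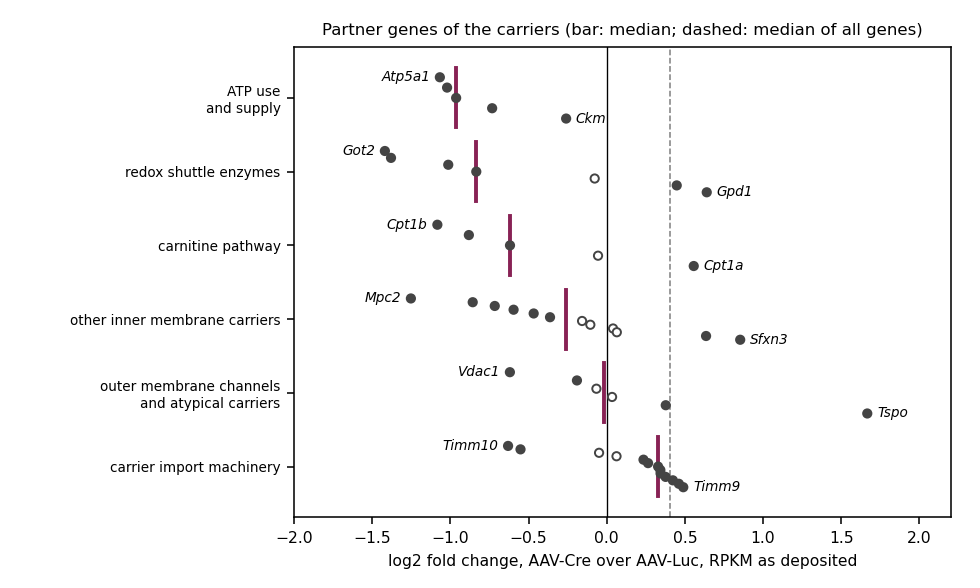
Log2 fold change of AAV-Cre over AAV-Luc, RPKM as deposited, for the 48 genes of 6 partner lists; filled points have an adjusted p under 0.05, thick bars are list medians and the dashed line is the median of all genes at 0.41. The median is -0.96 for ATP use and supply and 0.33 for the carrier import machinery.

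The calcium-regulated carriers that exchange ATP-Mg for phosphate, and so set the adenine nucleotide content of the matrix, differed in direction among themselves. Slc25a23 fell, averaging 7.19 ± 0.486 RPKM in AAV-Cre and 9.76 ± 1.47 RPKM in AAV-Luc (SD, n = 4 each), a log2 fold change of -0.41 (adjusted p = 0.00803), although its AAV-Luc library 3, at 7.56 RPKM, lay among the AAV-Cre libraries. Slc25a25 rose, at 4.14, 3.31, 3.92 and 3.05 RPKM in AAV-Cre, against 2.40, 1.82, 1.31 and 1.63 RPKM in AAV-Luc. Its groups did not overlap, with a log2 fold change of 0.85 (SE 0.15, adjusted p = 0.000674) and 0.45 after centring (adjusted p = 0.0251). Slc25a24 rose as deposited and was not called after centring, averaging 3.98 ± 0.396 RPKM in AAV-Cre and 2.66 ± 0.366 RPKM in AAV-Luc (log2 fold change 0.51, adjusted p = 0.00197, and 0.10 after centring). The ratio of Slc25a25 to Slc25a23 was 0.50 ± 0.0453 in AAV-Cre and 0.183 ± 0.0333 in AAV-Luc, and that of Slc25a24 to Slc25a23 was 0.556 ± 0.0816 in AAV-Cre and 0.275 ± 0.0316 in AAV-Luc (SD, n = 4 each; both exact permutation p = 0.0286, adjusted p = 0.0429). Neither ratio overlapped between groups. Of the exon bases of Slc25a23, 3.17% are shared with the antisense gene Gm17168, which averaged 27.5 RPKM in AAV-Cre and 39.4 RPKM in AAV-Luc. The use of strand in counting is not given, so the level of Slc25a23 and both ratios are uncertain. Slc25a41, next to Slc25a23 on chromosome 17, did not pass the filter.

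Among carriers of other amino acids, Slc25a29 and Slc25a38 fell, Slc25a44 rose and Slc25a15 was not called. Slc25a29, a carrier of basic amino acids (chr12:108825873-108835883, minus strand), measured 0.865, 0.549, 0.620 and 0.409 RPKM in AAV-Cre, against 2.19, 2.68, 2.12 and 2.51 RPKM in AAV-Luc. Its log2 fold change of -1.38 (SE 0.14, adjusted p = 2.46e-05) was the lowest of the 41 carriers as tested, but it passed the filter through its AAV-Luc libraries alone and so had to differ. Slc25a38, which imports the glycine used to make heme, averaged 4.89 RPKM in AAV-Cre and 6.6 RPKM in AAV-Luc (log2 fold change -0.40, adjusted p = 0.00298). Slc25a44, a carrier of branched-chain amino acids, averaged 5.63 RPKM in AAV-Cre and 4.03 RPKM in AAV-Luc (log2 fold change 0.44, adjusted p = 0.0012), but only 0.03 after centring. Slc25a15, the ornithine carrier of the urea cycle, averaged 3.15 RPKM in AAV-Cre and 3.29 RPKM in AAV-Luc (adjusted p = 0.553).

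Slc25a29 lies head to head with Slc25a47, a carrier known from liver, with 162 bases between their annotated starts. Slc25a47 (chr12:108836046-108856815, plus strand) averaged 8.13 ± 0.691 RPKM in AAV-Cre and 13.7 ± 1.49 RPKM in AAV-Luc (SD, n = 4 each) and fell, with a log2 fold change of -0.72 (adjusted p = 0.000123). The RefSeq promoter of Slc25a29, on GRCm38.p6 at chr12:108835827-108836126 on the minus strand, is printed because it holds the stretch between these starts, which the capitals mark. RefSeq starts Slc25a47 farther along, with a promoter at chr12:108850879-108851178.
Slc25a29: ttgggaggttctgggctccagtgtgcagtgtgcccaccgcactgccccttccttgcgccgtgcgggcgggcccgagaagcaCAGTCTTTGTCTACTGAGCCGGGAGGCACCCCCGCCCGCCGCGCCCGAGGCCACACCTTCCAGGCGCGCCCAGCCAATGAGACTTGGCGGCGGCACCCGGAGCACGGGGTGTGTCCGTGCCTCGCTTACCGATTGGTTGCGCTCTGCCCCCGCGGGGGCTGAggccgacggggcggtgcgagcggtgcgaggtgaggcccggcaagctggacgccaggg

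Of 9 carriers of cofactors, nucleotides and methyl donors, 4 fell, 2 rose and 3 were not called, where 8.87% of all genes fell and 64.4% rose. After centring 7 were lower, 0 higher and 2 not called, where 24.1% of all genes were lower and 21.8% higher. Slc25a33, a carrier of pyrimidine nucleotides, measured 5.48, 3.68, 5.71 and 3.28 RPKM in AAV-Cre, against 7.70, 8.96, 9.08 and 8.49 RPKM in AAV-Luc. It fell without overlap, with a log2 fold change of -0.88 (adjusted p = 0.000836), and shares 14.9% of its exon bases with the antisense gene Gm13068, which averaged 2.75 RPKM in AAV-Cre and 5.42 RPKM in AAV-Luc. Slc25a36, the other carrier of pyrimidine nucleotides, averaged 10.8 ± 1.35 RPKM in AAV-Cre and 7.68 ± 1.14 RPKM in AAV-Luc (SD, n = 4 each), a log2 fold change of 0.47 (adjusted p = 0.00577) that was 0.06 after centring. Gm13217, 99.6% identical to Slc25a36 over 544 bases, averaged 2.25 RPKM in AAV-Cre and 1.61 RPKM in AAV-Luc. The ratio of Slc25a36 to Slc25a33 was 2.55 ± 0.835 in AAV-Cre and 0.901 ± 0.149 in AAV-Luc, without overlap (SD, n = 4 each; exact permutation p = 0.0286, adjusted p = 0.0429).

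Slc25a42, which brings coenzyme A into the matrix, averaged 8.62 ± 1.46 RPKM in AAV-Cre and 13.1 ± 2.26 RPKM in AAV-Luc (SD, n = 4 each), a log2 fold change of -0.57 (adjusted p = 0.00486). Slc25a26, the importer of the methyl donor S-adenosylmethionine, fell by 0.38 on the log2 scale (adjusted p = 0.00219). Slc25a17, which carries cofactors across the peroxisomal membrane, averaged 13.4 RPKM in AAV-Cre and 9.99 RPKM in AAV-Luc (log2 fold change 0.40, adjusted p = 0.000611), a difference that was 0.00 to 2 decimals after centring. Slc25a16, linked to coenzyme A, and Slc25a51, the importer of NAD, were not called as deposited, with log2 fold changes of -0.04 and -0.08, but were lower after centring, at -0.45 and -0.49 (adjusted p = 0.00208 and 0.00032). Slc25a32, linked to folate and FAD, had a log2 fold change of 0.15 and was not called as deposited (adjusted p = 0.11). It was called higher without AAV-Luc library 3 (adjusted p = 0.0341) and with library quality weights (adjusted p = 0.0243), and lower after centring (-0.25, adjusted p = 0.0459) and after quantile normalization (-0.28, adjusted p = 0.0292).

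Of the 4 carriers of iron and glutathione none fell as deposited and 3 rose, where 64.4% of all genes rose. After centring 1 was lower, 1 higher and 2 not called, where 24.1% of all genes were lower and 21.8% higher. Slc25a37, mitoferrin 1, which imports iron for heme and iron-sulfur clusters, measured 9.75, 9.40, 9.27 and 10.5 RPKM in AAV-Cre, against 6.72, 6.37, 5.55 and 5.57 RPKM in AAV-Luc. Its groups were apart, with a log2 fold change of 0.65 (SE 0.08, adjusted p = 9.27e-05) and 0.24 after centring (adjusted p = 0.0181). Gm16867 matches Slc25a37 over 382 bases with 100% identity and averaged 54.4 RPKM in AAV-Cre and 31.6 RPKM in AAV-Luc, so the level of Slc25a37 is uncertain. Slc25a37 also serves red cell precursors. Of 5 blood markers tested 0 were called as deposited, beside 73.3% of all genes, and 3 were lower after centring, beside 24.1%. The blood list summed to 3549 to 5718 RPKM in AAV-Cre and 3732 to 5969 RPKM in AAV-Luc.

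Slc25a28, mitoferrin 2, averaged 11.3 RPKM in AAV-Cre and 9.47 RPKM in AAV-Luc, a log2 fold change of 0.25 (adjusted p = 0.0399) and -0.15 after centring. Its call was lost without AAV-Cre library 1, 2 or 3 or AAV-Luc library 3, in turn. Relative to Slc25a37 it was lower in AAV-Cre, at a ratio of 1.17 ± 0.142 in AAV-Cre and 1.57 ± 0.178 in AAV-Luc (SD, n = 4 each; exact permutation p = 0.0286, adjusted p = 0.0429). Slc25a39, the main mitochondrial importer of glutathione, measured 26.1, 25.4, 24.7 and 22.1 RPKM in AAV-Cre, against 30.6, 35.1, 24.9 and 26.8 RPKM in AAV-Luc. AAV-Luc library 3 lay inside the AAV-Cre range, and the gene was not called (log2 fold change -0.24, SE 0.11, adjusted p = 0.0636), but was lower after centring (-0.65, adjusted p = 0.000351). Leaving out each library gave -0.31 without AAV-Luc library 3 (adjusted p = 0.02) to -0.15 without AAV-Luc library 2. Its relative Slc25a40 averaged 4.50 RPKM in AAV-Cre and 3.46 RPKM in AAV-Luc (log2 fold change 0.34, adjusted p = 0.00389, and -0.07 after centring). The ratio of Slc25a40 to Slc25a39 was 0.184 ± 0.0239 in AAV-Cre and 0.120 ± 0.0231 in AAV-Luc, without overlap (SD, n = 4 each; exact permutation p = 0.0286, adjusted p = 0.0429).

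**Figure D4:**
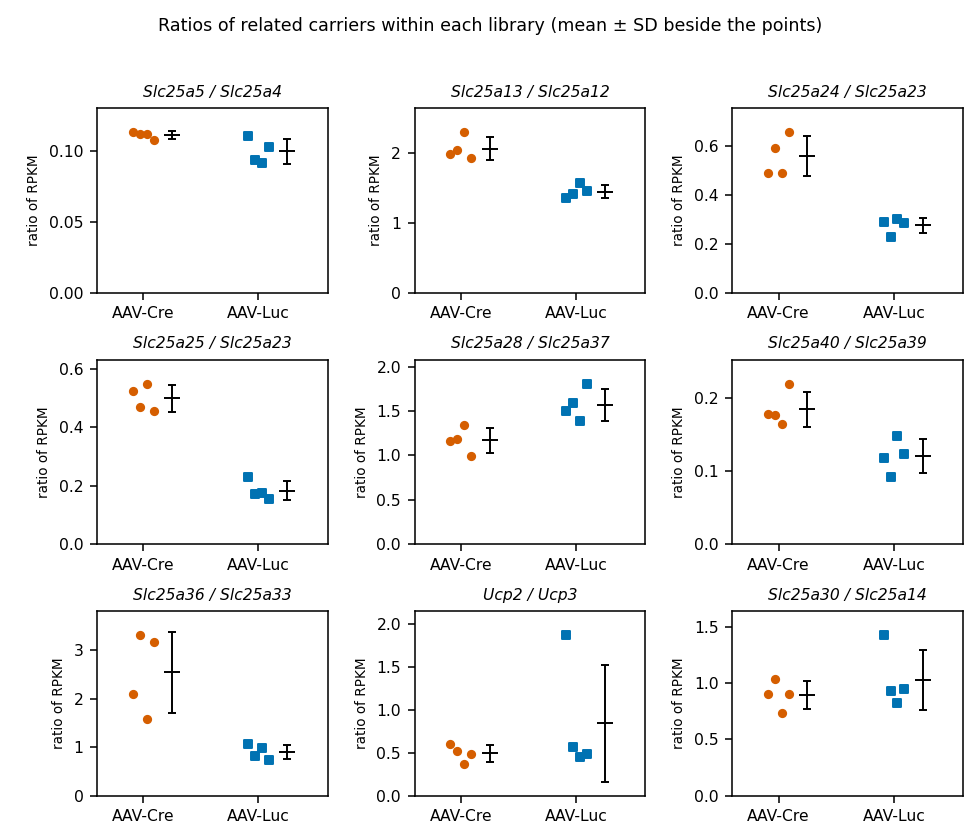
Ratio of RPKM of 9 pairs of related carriers in each AAV-Cre library (circles) and each AAV-Luc library (squares), with the mean and SD beside them. The groups do not overlap for 6 pairs, and for Ucp2 over Ucp3 AAV-Luc library 1 stands at 1.86, above the other 7 libraries.

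Ucp3, the uncoupling protein of muscle, tied to fatty acid use (chr7:100472990-100486432, plus strand), measured 26.0, 32.8, 52.3 and 34.0 RPKM in AAV-Cre, against 7.26, 21.1, 24.7 and 30.7 RPKM in AAV-Luc. The ranges overlapped through AAV-Luc library 4, and the log2 fold change of 0.90 had an SE of 0.39 and an adjusted p of 0.0611. Leaving out each library gave 0.47 without AAV-Luc library 1 (adjusted p = 0.083) to 1.14 without AAV-Luc library 4 (adjusted p = 0.0282), and after centring the log2 fold change was 0.49 (adjusted p = 0.352). Ucp2, found in many tissues and in immune cells, begins 6.9 kb beyond the end of Ucp3 and measured 15.5, 16.8, 19.1 and 16.6 RPKM in AAV-Cre, against 13.5, 12, 10.9 and 14.7 RPKM in AAV-Luc. Every AAV-Cre library was above every AAV-Luc library, with a log2 fold change of 0.40 (SE 0.10, adjusted p = 0.00536), close to the median of all genes, and after centring the difference was -0.01 (adjusted p = 0.954). All 7 macrophage markers rose, beside 64.4% of all genes, and 6 were higher after centring, beside 21.8%. They summed to 283 to 378 RPKM in AAV-Cre and 140 to 151 RPKM in AAV-Luc, and their part in the level of Ucp2 was not tested.

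Ucp1, the uncoupling protein of brown fat, was listed at 0 in 3 AAV-Cre and 2 AAV-Luc libraries and reached 0.0938 RPKM in AAV-Cre and 0.253 RPKM in AAV-Luc. Of 9 fat markers 3 were tested. Dio2 and Prdm16 rose, and Cfd was not called (adjusted p = 0.782), while after centring 1 of the 3, Dio2, was higher. The list summed to 11.7 to 19.1 RPKM in AAV-Cre and 5.93 to 11.1 RPKM in AAV-Luc, with Dio2 at means of 6.90 RPKM in AAV-Cre and 0.317 RPKM in AAV-Luc and Prdm16 at 4.93 RPKM in AAV-Cre and 4.11 RPKM in AAV-Luc. The adipocyte genes Adipoq and Plin1 averaged 0.411 and 0.282 RPKM in AAV-Cre, against 0.515 and 0.346 RPKM in AAV-Luc. Adipoq, Plin1 and Cfd were highest in AAV-Luc library 2, at 1.18, 0.691 and 3.74 RPKM, the library in which Ucp1 reached its 0.253 RPKM, and their part in the level of Ucp1 was not tested. The relatives Slc25a14 and Slc25a30, known from the nervous system and from kidney, rose by 0.59 (adjusted p = 0.00217) and 0.43 (adjusted p = 0.00459) on the log2 scale, and neither was called after centring. Slc25a27, known from brain, averaged 4.2 RPKM in AAV-Cre and 3.73 RPKM in AAV-Luc and was not called as deposited (log2 fold change 0.16, adjusted p = 0.0917), but was lower after centring (-0.25, adjusted p = 0.0288) and quantile normalization (-0.27, adjusted p = 0.0201). Of the pairs in this class, Ucp2 to Ucp3 had a ratio of 0.490 ± 0.0953 in AAV-Cre and 0.838 ± 0.685 in AAV-Luc (SD, n = 4 each; exact permutation p = 0.486, adjusted p = 0.486), and Slc25a30 to Slc25a14 one of 0.894 ± 0.124 in AAV-Cre and 1.03 ± 0.268 in AAV-Luc (exact permutation p = 0.429, adjusted p = 0.482).

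Of 6 tested carriers whose substrate is little known, 3 fell, 2 rose and 1 was not called, where 8.87% of all genes fell and 64.4% rose. Slc25a34 (chr4:141618824-141623821, minus strand) measured 24.1, 20.4, 26.9 and 18.4 RPKM in AAV-Cre, against 31.6, 42.2, 38.7 and 39.7 RPKM in AAV-Luc. It fell without overlap, with a log2 fold change of -0.76 (SE 0.13, adjusted p = 0.000528). Slc25a35 (chr11:68968131-68974365, plus strand), also little known, measured 7.29, 6.05, 6.09 and 5.61 RPKM in AAV-Cre, against 11.9, 15.1, 12.2 and 14.8 RPKM in AAV-Luc. It also fell without overlap, by 1.05 on the log2 scale (SE 0.11, adjusted p = 2.54e-05). Slc25a35 shares 31.3% of its exon bases with Rangrf on the opposite strand, which averaged 22.9 RPKM in AAV-Cre and 55.9 RPKM in AAV-Luc. The use of strand in counting is not given in the sources used here, so the reads of these overlapping genes cannot be told apart. Shares of exon bases lying under a gene of the opposite strand were 7.06% for Slc25a46, 6.6% for Slc25a10, 6.33% for Slc25a37, 4.82% for Slc25a25, 4.36% for Ucp2 and 3.17% for Slc25a23.

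The RefSeq promoter of Slc25a34, on GRCm38.p6 at chr4:141623785-141624084 on the minus strand, is printed because it was the only carrier promoter with AAGGTCA, the core to which estrogen-related receptors bind. The capitals mark that motif on the opposite strand, read as TGACCTT, with its first base at position -119 from the transcription start.
Slc25a34: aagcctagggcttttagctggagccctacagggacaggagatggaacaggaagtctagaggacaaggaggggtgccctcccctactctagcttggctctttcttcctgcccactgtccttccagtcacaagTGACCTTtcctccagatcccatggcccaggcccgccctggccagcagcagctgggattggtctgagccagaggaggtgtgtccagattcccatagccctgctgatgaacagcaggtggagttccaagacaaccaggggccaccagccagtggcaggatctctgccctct

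Slc25a45 averaged 6.20 RPKM in AAV-Cre and 4.30 RPKM in AAV-Luc, a log2 fold change of 0.52 (adjusted p = 0.0201) that was 0.11 after centring. Its call was lost without AAV-Cre library 1 (adjusted p = 0.0511) or AAV-Luc library 2 (adjusted p = 0.0552). Slc25a53 averaged 1.32 RPKM in AAV-Cre and 0.795 RPKM in AAV-Luc, a log2 fold change of 0.49 (adjusted p = 0.00373), and it passed the filter through its AAV-Cre libraries alone, so it had to differ, and was at 0.08 after centring. Slc25a46, a carrier-like protein of the outer membrane with a role in mitochondrial shape, averaged 15.5 RPKM in AAV-Cre and 15.3 RPKM in AAV-Luc (log2 fold change 0.02, adjusted p = 0.792), and was lower after centring (-0.39, adjusted p = 0.00139) and quantile normalization (-0.38, adjusted p = 0.00157). The 9 carriers that did not pass the filter were Slc25a2, Slc25a18, Slc25a21, Slc25a31, Slc25a41, Slc25a43, Slc25a48, Slc25a54 and Ucp1, each under 1 RPKM in every library. Slc25a43 averaged 0.673 ± 0.0491 RPKM in AAV-Cre and 0.447 ± 0.104 RPKM in AAV-Luc (SD, n = 4 each).

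Direction went with level among the carriers. Of the 10 carriers that averaged at least 20 RPKM in a group, 7 fell, 0 rose and 3 were not called, and of all genes at that level 15.9% fell and 67.4% rose. The 3 that were not called were Slc25a20, Slc25a39 and Ucp3. Of the 31 tested carriers under that level, 9 fell, 14 rose and 8 were not called, and of all genes under it 6.41% fell and 63.4% rose. After centring, 9 of the 10 were lower, beside 30.3% of all genes at that level, and 0 were higher, beside 28.8%. Of the 31, 17 were lower after centring, beside 21.9% of all genes under that level, and 3 were higher, beside 19.4%. Across the 41 carriers the rank correlation of mean level and log2 fold change was -0.46, and across all genes it was -0.04, as a description of values from the same 8 libraries.

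**Figure D5:**
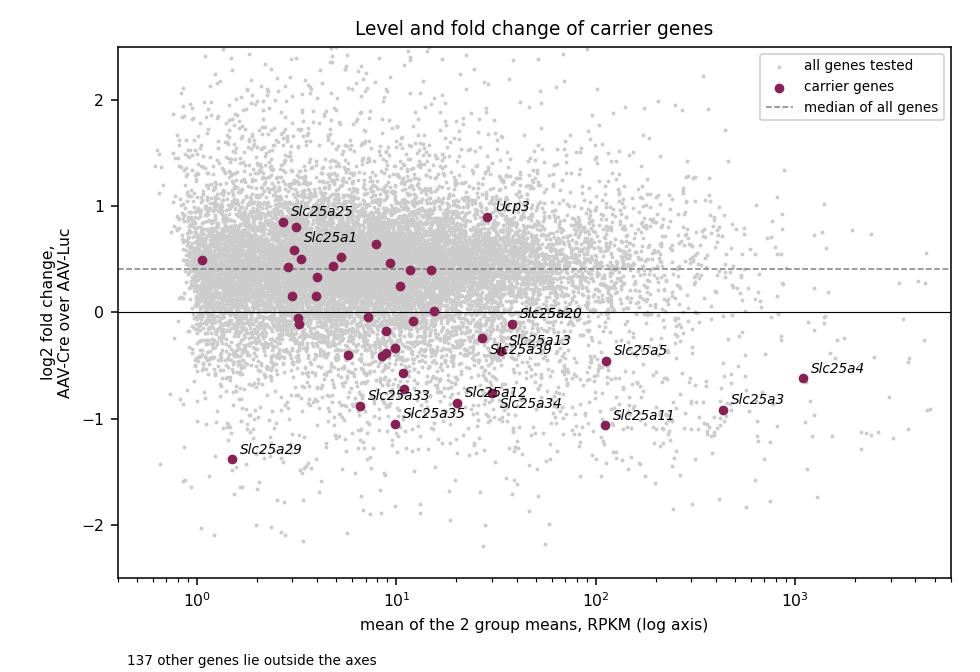
Log2 fold change of AAV-Cre over AAV-Luc (y axis) against the mean of the group means in RPKM (log x axis) for all genes tested (grey) and the 41 carriers (dark points, the more abundant or more changed of them named); the dashed line is the median of all genes at 0.41. Carriers above 50 RPKM all lie below 0, and those above the dashed line, other than Ucp3, lie under 20 RPKM.

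Of the 16 carriers called lower, AAV-Cre library 4 was the lowest of its group in 13, AAV-Cre library 1 the highest in 9 and AAV-Cre library 3 the highest in 6. Among the AAV-Luc libraries, library 3 was the lowest in 10 of the 16 and library 1 in 6, and library 2 was the highest in 10. Of the 14 carriers called higher, AAV-Cre library 4 was the highest of its group in 7 and AAV-Cre library 3 the lowest in 6, and AAV-Luc library 3 the lowest of its group in 9.

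Carriers reach the inner membrane through the import machinery of the outer membrane and the small TIM chaperones. Of 13 such genes 9 rose, 2 fell and 2 were not called, where 64.4% of all genes rose, and the median log2 fold change of 0.33 was below the 0.41 of all genes. After centring 0 were higher, beside 21.8% of all genes, and 4 were lower, beside 24.1%. Timm9 averaged 24.3 RPKM in AAV-Cre and 17.2 RPKM in AAV-Luc (log2 fold change 0.49, adjusted p = 0.0011), and its partner in the chaperone complex, Timm10, averaged 15.7 RPKM in AAV-Cre and 24.7 RPKM in AAV-Luc (log2 fold change -0.63, adjusted p = 0.000583). The receptor subunit Tomm20 had a log2 fold change of 0.46 and Timm8a1 one of -0.55.

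Of 12 inner membrane carriers outside the family, 6 fell, 2 rose and 4 were not called, with a median of -0.26, where 8.87% of all genes fell and 64.4% rose. After centring 10 were lower and 2 higher, beside 24.1% and 21.8% of all genes. The subunits of the pyruvate carrier fell, Mpc1 averaging 323 ± 22.9 RPKM in AAV-Cre and 585 ± 31.4 RPKM in AAV-Luc, and Mpc2 averaging 14.2 ± 1.53 RPKM in AAV-Cre and 34.5 ± 2.15 RPKM in AAV-Luc (SD, n = 4 each). Their log2 fold changes were -0.86 and -1.25. Ghitm, an inner membrane protein of ion exchange, changed by -0.60 on the log2 scale, and Sfxn3, a sideroflexin that can carry serine, by 0.85. Of 6 genes of the outer membrane and of atypical carriers, 2 fell, 2 rose and 2 were not called, where 8.87% of all genes fell and 64.4% rose. After centring 4 of these 6 were lower and 1 higher, beside 24.1% and 21.8% of all genes. Vdac1, a channel through which metabolites cross the outer membrane, averaged 173 ± 18.4 RPKM in AAV-Cre and 265 ± 9.66 RPKM in AAV-Luc (log2 fold change -0.62). Vdac2, another such channel, was at a higher level, averaging 256 ± 7.95 RPKM in AAV-Cre and 293 ± 8.82 RPKM in AAV-Luc (log2 fold change -0.19). Tspo, a cholesterol-binding protein of the outer membrane that macrophages also express, averaged 66.5 ± 9.19 RPKM in AAV-Cre and 20.5 ± 2.10 RPKM in AAV-Luc (SD, n = 4 each; log2 fold change 1.67), and the part of macrophages was not tested. Mtch1, an atypical carrier protein, had a log2 fold change of 0.38 that was -0.03 after centring.

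RefSeq promoters were found for 39 of the 50 carriers, 49 promoters in all. On either strand, the receptor element TNAAGGTCA was in 0 of the 49, and in 1.28% of 32851 promoters of mouse genes. The shorter AAGGTCA, which that element contains, was in 1 of 49, beside 4.72% of all promoters. A direct repeat of AGGTCA with 1 base between the copies was in 0, beside 0.0396%. The NRF1 motif was in 2, those of Slc25a3 and Slc25a31, beside 4.60%, and ATGGCGGC was in 1, that of Slc25a42, beside 2.24%. The median GC content was 61.0% over 13 carriers called lower, 63.1% over 12 called higher and 52.7% over all promoters.

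Markers of cell types gave the setting of these values. Of all genes, 8.87% were lower and 64.4% higher as deposited, and 24.1% were lower and 21.8% higher after centring. The 6 cardiomyocyte markers summed to 15367 to 18547 RPKM in AAV-Cre and 17000 to 20949 RPKM in AAV-Luc, with 2 lower and 2 higher as deposited and 4 lower and 0 higher after centring. The 5 fibroblast markers all rose, also after centring, at sums of 973 to 1590 RPKM in AAV-Cre and 432 to 525 RPKM in AAV-Luc, and of the 5 endothelial markers 0 were called as deposited and 5 were lower after centring, at 465 to 608 RPKM in AAV-Cre and 492 to 532 RPKM in AAV-Luc. Markers of cycling cells summed to 2.09 to 10.8 RPKM in AAV-Cre and 2.91 to 7.62 RPKM in AAV-Luc, and 0 were called. The 4 atrial markers rose, at 4664 to 10238 RPKM in AAV-Cre and 103 to 222 RPKM in AAV-Luc, and Nppa among them is also made by stressed ventricles. Leaving out AAV-Cre library 3 and AAV-Luc library 2, the libraries with the most of the atrial light chain Myl7 in their groups, 16 carriers were lower and 12 higher. Among all genes, 1321 were then lower and 10216 higher. The part of a change in cell types in the carrier values was not tested.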

How the data were processed

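Poly(A)-enriched RNA was sequenced as read pairs, per the labels' protocols, which name both a TruSeq and a NEBNext kit. The deposited values are RPKM, and per the submitters' processing notes the authors used FastQC 0.11, STAR, Partek 6.6, edgeR and mm10. Which annotation, gene lengths and strand setting were used is not given in the sources used here. All 8 columns name a group but no sample title. Low values were whole multiples of 1 step, within 0.1, for 99.0 to 99.3% of values, and 73.6 to 78.7% of these were even, so the implied totals appear to count single reads of pairs. Gene lengths are unknown, so no count model was fitted.

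Tests used limma 3.58.1 (R 4.3.3) on log2(RPKM + 0.5), with eBayes and a trend, and Benjamini-Hochberg adjustment at 0.05 over the 16385 genes that reached 1 RPKM in 4 or more libraries. Fold changes on this scale understate those of low genes. Ratios and sums were compared by two-sided exact permutation tests over 70 arrangements. In simulated data, recovery among 50 genes per size was 56% at a log2 change of 0.5, 88% at 1, 96% at 2 and 100% at 4, and 10 unchanged genes were called. Only those genes were changed there, without a general shift. In the measured data 73.3% of all genes were called, so these rates do not carry over to this comparison. All 50 carriers were found in GENCODE M21 (GRCm38, the assembly of mm10). Near-identical copies were searched with BLAST 2.17.0, at 90% identity over 300 bases, and overlaps by exon position. RPKM is relative to the library total, so a fall of abundant transcripts raises all others.

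The values of 1 carrier, which enters the counts, are not reported here. The members, substrate classes, lists, tests and alternatives were chosen with earlier results of these data known. Carriers averaging at least 20 RPKM in a group, or called with a fold of at least 2, are given in every library, as are some others chosen after their values were seen, and partner lists name at most 4 genes by smallest p. Alternatives were pseudocounts of 0.1 and 1, no filter, a mean of at least 5 RPKM, centring, quantile normalization, leaving out mitochondrial and haemoglobin genes, a robust prior, library weights, leaving out each library or the 2 libraries with most Myl7, and a replicate block.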

Additional observations from a re-analysis of the deposited data

Results flagged for a closer look

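The 102 groups of 4 values tested were those of each tested carrier, of the 9 ratios of related carriers and of the summed level, in each virus group. In 8 of them a library was far from the other 3, and chance flags about 1 group in 20. In 4 of the 8 it was AAV-Luc library 3: Slc25a12 was at 24.7 RPKM there, against 26.2 to 26.5 RPKM in the other AAV-Luc libraries, and Slc25a23 was at 7.56 RPKM, against 10.4 to 10.6 RPKM. Slc25a28 was at 7.69 RPKM in the same library, against 10.0 to 10.1 RPKM in the others, and Slc25a47 at 11.5 RPKM, against 14.4 to 14.7 RPKM. In AAV-Cre library 3, Slc25a22 stood high at 10.2 RPKM, against 7.49 to 7.65 RPKM, and Slc25a46 stood low at 14.7 RPKM, against 15.7 to 15.8 RPKM. Slc25a15 was high in AAV-Cre library 1, at 3.51 RPKM against 3.01 to 3.07 RPKM. The ratio of Ucp2 to Ucp3 was 1.86 in AAV-Luc library 1, against 0.443 to 0.568 in the other AAV-Luc libraries, where Ucp3 itself was at 7.26 RPKM in library 1.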

How the results depend on the processing

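The scaling of libraries moved the counts most. Carriers called lower numbered 26 when centred or quantile normalized, against 16 as deposited, and carriers called higher numbered 3 under both, 4 without mitochondrial and haemoglobin genes and 6 at a mean of at least 5 RPKM, against 14. Partner genes called higher numbered 3, 3 and 5 under centring, quantile normalization and removal of those genes. All genes called lower numbered 3949, 3838 and 2674 under the same alternatives, against 1454, and called higher 3578, 3810 and 6243, against 10559. The filter on a mean of at least 5 RPKM tested fewer genes, 28 of them carriers, and all 28 kept their calls. Under that filter 6 carriers and 6607 of all genes were called higher. Centring turned the log2 fold changes of Slc25a17 (-0.0046), Slc25a27 (-0.25), Slc25a28 (-0.15), Slc25a32 (-0.25), Slc25a40 (-0.0714), Slc25a46 (-0.39), Ucp2 (-0.0082) and Mtch1 (-0.0304) below 0. Quantile normalization did so for Slc25a27 (-0.27), Slc25a28 (-0.14), Slc25a32 (-0.28), Slc25a40 (-0.0885) and Slc25a46 (-0.38), and removal of mitochondrial and haemoglobin genes for Slc25a27 (-0.0929), Slc25a28 (-0.0093), Slc25a32 (-0.0856) and Slc25a46 (-0.25). Leaving out each library, Slc25a46 ran from -0.0063 without AAV-Luc library 2 to 0.042 without AAV-Cre library 3. The cause was not tested.

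Leaving out each library gave 15 to 17 carriers lower and 12 to 15 higher, and of all genes 1306 to 1571 lower and 9909 to 10374 higher. With 3 libraries against 4, the exact test cannot go below 0.0571, so the ratios and the sum lose their calls by construction. The log2 differences were then 0.46 to 0.55 for Slc25a13 to Slc25a12, 0.93 to 1.07 for Slc25a24 to Slc25a23 and 1.39 to 1.58 for Slc25a25 to Slc25a23. They were -0.49 to -0.35 for Slc25a28 to Slc25a37, 0.50 to 0.73 for Slc25a40 to Slc25a39, 1.3 to 1.66 for Slc25a36 to Slc25a33 and -0.62 to -0.56 for the summed level. Slc25a28 and Slc25a45 were not called without a filter. Leaving out the libraries richest in Myl7 was chosen after seeing the data. Sample titles share number prefixes between the groups, but columns cannot be linked to single samples. The column names repeat 4 number suffixes. The deviations of same-numbered libraries correlated at 0.300, 0.149, 0.012 and 0.094, and those of differently numbered libraries at -0.245 to 0.254. AAV-Cre libraries 2, 3 and 4 each correlated best with another number. Whether same-numbered libraries were handled together was not tested. With that number as a replicate block, also added after seeing the data, 17 carriers were lower and 14 higher, and of all genes 1420 and 10263. Slc25a28 was then not called (adjusted p = 0.0797), while Slc25a39 (adjusted p = 0.0427) and Ucp3 (adjusted p = 0.0102) were.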
